A study of Homo sapiens with 12 samples.

Results

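The splicing events annotated to MBNL1, MBNL2, QKI, RBFOX2 or CELF1 in the 2 deposited tables are the subject here. They were 24 of 16199 events in the MISO table and 93 of 143414 events in the rMATS table. Each event that reached the size threshold given below is described, but not every event with smaller differences. The 5 genes were chosen by symbol, and an event of the antisense gene MBNL1-AS1 was not counted. The RNA came from cultures of HEK293T, a human cell line from embryonic kidney, carrying stable lentiviral hairpins against PRMT1, PRMT3, PRMT4, PRMT5, PRMT6 or PRMT7, or a scramble hairpin as control. PRMTs are protein arginine methyltransferases, and the study asked how they bear on RNA splicing. The labels list 12 poly(A) libraries: 1 hairpin against PRMT6, a pair of hairpins (2 libraries) against each of the other targets, and 1 scramble library. The tables give 1 column per target, so a value here is the authors' only one for that target, without SD, replicates or a test. Read depth is unknown, the level of each knockdown was not analysed here, and transcript levels of the 5 regulators are not part of these tables.

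The MBNL, QKI, RBFOX and CELF proteins bind short motifs in pre-mRNA and switch exons on or off as tissues mature. MBNL1 and MBNL2 are zinc finger proteins that favour adult splice forms and are sequestered by expanded CUG repeats in myotonic dystrophy. CELF1 binds GU-rich RNA and acts against MBNL proteins on many heart and muscle exons. QKI is a KH-domain protein of the STAR family known from myelination, and RBFOX2 recognises GCAUG. Transcripts of all these genes are themselves alternatively spliced, in part under control of their own proteins.

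Percent spliced in (PSI) runs from 0 to 1 and is the part of an event's transcripts that takes the inclusive form. The MISO table holds PSI itself, and the rMATS table holds a difference in PSI, given here as knockdown minus scramble. The direction of the rMATS table is not stated in it and was read from its correlation with the MISO differences. An event is called differing at a difference of at least 0.1 PSI, a rule of size alone. All 6 comparisons share the 1 scramble library, so a difference on the same side in every knockdown can also come from that library. Coordinates are GRCh37.

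The alternative exons that the results turn on are small. The exons of 54, 36 and 95 bases in MBNL1 and MBNL2 are shown in pairs because the paralogues carry exons of equal length at matching places, and capitals mark the bases at which a pair differs. The exons of 43 and 40 bases of RBFOX2 are shown because their readouts lie on opposite sides of scramble. The sequences are those of GENCODE release 29 transcripts, matched by gene symbol, exon length and the length of a neighbouring exon.
MBNL1 54-base exon: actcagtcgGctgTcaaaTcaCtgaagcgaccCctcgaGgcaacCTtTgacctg
MBNL2 54-base exon: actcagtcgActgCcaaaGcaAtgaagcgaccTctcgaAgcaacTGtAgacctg
MBNL1 36-base exon: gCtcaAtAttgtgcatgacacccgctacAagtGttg
MBNL2 36-base exon: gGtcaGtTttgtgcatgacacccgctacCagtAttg
MBNL1 95-base exon: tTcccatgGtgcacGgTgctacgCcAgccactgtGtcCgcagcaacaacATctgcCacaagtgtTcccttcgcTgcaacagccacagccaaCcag
MBNL2 95-base exon: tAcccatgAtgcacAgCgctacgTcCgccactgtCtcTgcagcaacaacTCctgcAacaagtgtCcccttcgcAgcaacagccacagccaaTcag
RBFOX2 43-base exon: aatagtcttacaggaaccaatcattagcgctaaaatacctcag
RBFOX2 40-base exon: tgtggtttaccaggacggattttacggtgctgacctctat
The MBNL exons of 54 bases were identical at 45 of 54 positions, those of 36 bases at 31 of 36 and those of 95 bases at 81 of 95. The exon of 154 bases that follows the 54-base exon was identical at 107 of 154 positions, so each small exon was more alike between the paralogues (83.3%, 86.1% and 85.3%) than this neighbour (69.5%).

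Of the 24 MISO events, 16 had a PSI in all 7 columns: 9 of QKI, 4 of MBNL1, 3 of CELF1 and none of MBNL2 or RBFOX2. Of these 16, 9 differed from scramble in at least 1 knockdown: 5 of QKI, 3 of CELF1 and 1 of MBNL1. The share of all events that differed in at least 1 knockdown was not counted. The backgrounds below hold for a single knockdown and cannot be set beside 9 of 16. In PRMT1 knockdown 2 of 16 differed (background 7.40% of all 10358 events with 7 values), in PRMT3 knockdown 5 (background 10.5%), in PRMT4 knockdown 2 (7.47%), in PRMT5 knockdown 3 (8.27%), in PRMT6 knockdown 5 (6.84%) and in PRMT7 knockdown 1 (6.34%). Several of these events cover the same intron or splice site, so the counts are not counts of separate exons. The median size of the difference was 0.02 to 0.055 PSI over the 16 events, depending on the knockdown, and 0.01 to 0.02 over all events.

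In the authors' deposited table of rMATS differences, 43 of the 93 events had a value for every target, and 24 reached 0.1 in at least 1 knockdown. These 24 were 14 of the 37 events of CELF1, 4 of 8 of MBNL2, 3 of 17 of MBNL1, 2 of 17 of RBFOX2 and 1 of 14 of QKI. Here too the share of all events reaching 0.1 in at least 1 knockdown was not counted, and the backgrounds by target do not match this count. By target, 8 of 59 events differed in PRMT1 knockdown (background 13.5%), 13 of 58 for PRMT3 knockdown (15.7%), 15 of 67 for PRMT4 knockdown (14.4%), 13 of 62 for PRMT5 knockdown (14.7%), 14 of 62 for PRMT6 knockdown (15.8%) and 8 of 60 for PRMT7 knockdown (13.4%). The members' shares in PRMT1 (13.6%) and PRMT7 knockdown (13.3%) were thus at the background, and those in the other knockdowns were 21.0% to 22.6%. Many of these events are 1 exon listed again with other neighbours, above all in CELF1. The counts are therefore not counts of separate exons, and no count with overlapping events taken once was made for rMATS.

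**Figure D1:**
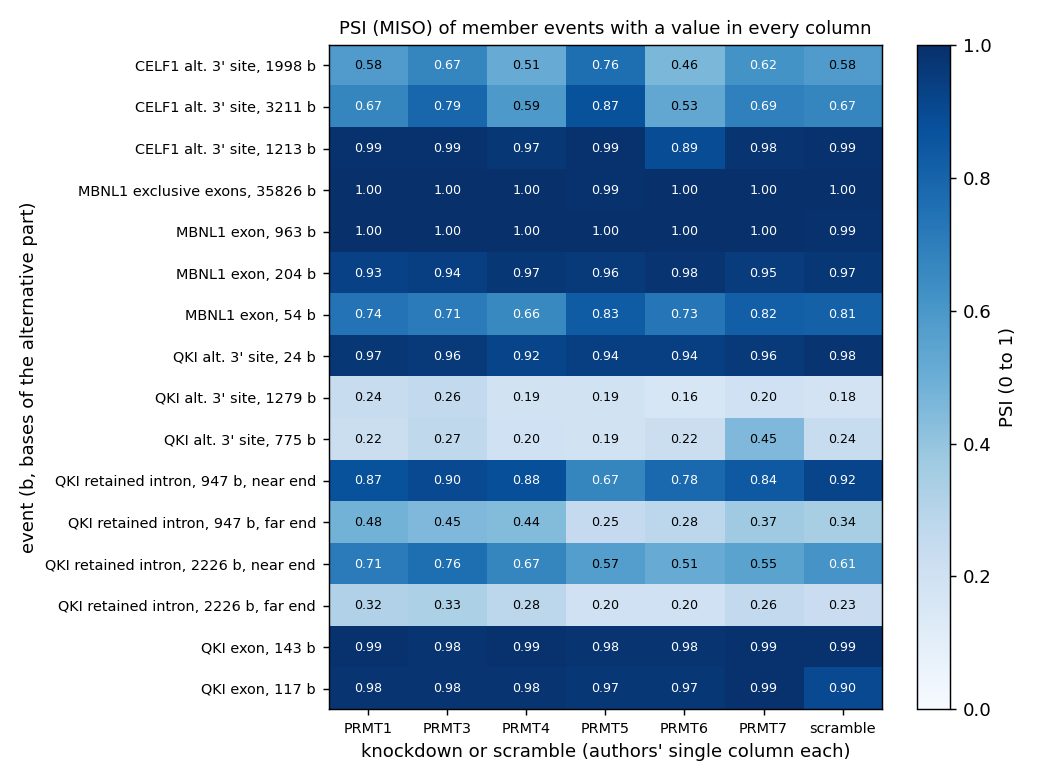
PSI by MISO (0 to 1, colour and printed value) of the 16 member events with a value in every column, with the knockdowns and then scramble from left to right. The 2 CELF1 choices against the far site range over 0.30 and 0.34 PSI, and the MBNL1 and QKI exons other than the 54-base exon stay at 0.90 or above in every column.

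The 54-base exon of MBNL1 (chromosome 3, 152164493 to 152164546) encodes part of the nuclear localisation signal, and MBNL proteins are known to repress it in their own transcripts. Its PSI by MISO was 0.74 for PRMT1, 0.71 for PRMT3, 0.66 for PRMT4, 0.83 for PRMT5, 0.73 for PRMT6 and 0.82 for PRMT7 knockdown, against 0.81 in scramble. It was thus included less in PRMT4 (-0.15) and PRMT3 (-0.10) knockdown, at -0.07 for PRMT1 and -0.08 for PRMT6 knockdown, and within 0.02 of scramble in PRMT5 and PRMT7 knockdown. In the authors' deposited table the exon between the same splice sites stood at -0.068 for PRMT1, -0.035 for PRMT3, -0.113 for PRMT4, -0.083 for PRMT5, -0.163 for PRMT6 and -0.030 for PRMT7 knockdown. Both tables put it at or beyond -0.1 in PRMT4 knockdown. They parted for PRMT3, past 0.1 by MISO alone, for PRMT6, past 0.1 in rMATS alone, and for PRMT5 and PRMT7, where the sides differed.

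MBNL2 has a paralogous exon of the same length (chromosome 13, 98009050 to 98009103), for which the MISO table held no event. In the authors' deposited table it was measured after 2 different upstream exons. Spliced from the donor at 97999321, which also ends the 264-base exon just upstream, it stood at -0.050 for PRMT1, -0.101 for PRMT3, -0.204 for PRMT4, -0.076 for PRMT5, -0.335 for PRMT6 and -0.160 for PRMT7 knockdown. All 6 values lay below scramble, and the largest was in PRMT6 and the next in PRMT4 knockdown, as for the MBNL1 exon in the same table. Spliced from an exon farther upstream (donor at 97995470), in transcripts that lack the 264-base exon, the same exon stood above scramble in all 6 knockdowns, at 0.289 in PRMT4 to 0.577 in PRMT6. Inclusion of the 264-base exon itself differed by 0.001 to 0.038, and retention of a 37-base intron within it (97999258 to 97999294) by -0.043 to -0.008 in 5 targets. The direction of the 54-base MBNL2 exon therefore depended on which upstream exon it was measured from.

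**Figure D2:**
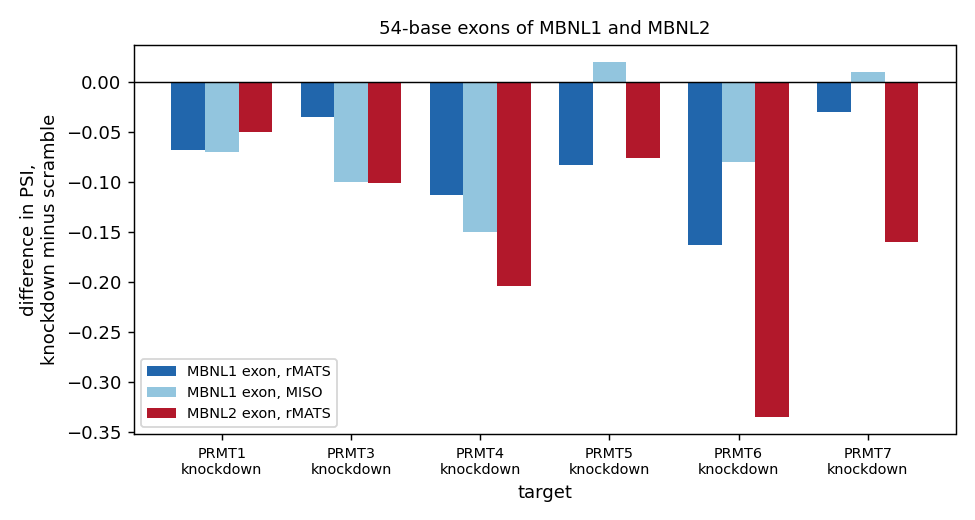
Difference in PSI, knockdown minus scramble, of the 54-base exon of MBNL1 (rMATS and MISO) and of MBNL2 (rMATS, donor at 97999321) by target, 1 bar per authors' value. The 12 rMATS bars lie below 0, with the longest at PRMT6 for both genes, and the MISO bars of MBNL1 are above 0 for PRMT5 and PRMT7.

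Further exon pairs near the 3' end of the MBNL genes mostly lay on different sides of scramble, though not with every set of neighbours. The 95-base exon of MBNL2 (98018713 to 98018807), whose length is no multiple of 3, stood at 0.106 for PRMT1, 0.135 for PRMT3, 0.140 for PRMT4, 0.131 for PRMT5, 0.065 for PRMT6 and 0.047 for PRMT7 knockdown in the authors' deposited table. All 6 values were above scramble, and 4 reached 0.1. Measured after the 36-base exon instead, it stood at -0.030 in PRMT5 and PRMT7 knockdown. The matching MBNL1 exon (152174056 to 152174150) stayed between -0.046 and -0.003 over its 2 sets of neighbours. Measured after the 36-base exon, the 95-base exons of both genes thus lay below scramble. The 36-base exon of MBNL2 (98017390 to 98017425), joined directly to the exon at 98043576, stood at 0.143 in PRMT4, 0.118 in PRMT5 and 0.045 in PRMT7 knockdown, with no value for the other targets. Joined to the 95-base exon, it stood at 0.025 to 0.057 in 4 targets. The 36-base exon of MBNL1 (152173331 to 152173366) was at -0.096 to 0.019, below 0.1 in size throughout.

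MISO gave few values for these MBNL2 exons. The 36-base exon had a PSI of 0.08 in PRMT7 knockdown against 0.09 in scramble. Inclusion of the 95-base exon was 0.74 in PRMT5 knockdown, its only value. Listed as mutually exclusive, the couple of exons stood at 0.92 for PRMT1, 0.96 for PRMT3, 0.91 for PRMT4 and 0.90 for PRMT5 knockdown, with no scramble value to compare, and the table does not state which of them counts as included.

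Upstream in MBNL1, values for 2 longer exons stayed near scramble, and those of a 120-base exon depended on its neighbours. By MISO the 204-base exon (152150506 to 152150709) stood at 0.93 to 0.98 in the knockdowns against 0.97 in scramble, and rMATS differences for it were -0.028 to -0.010. The 963-base exon far upstream (152017194 to 152018156) was at 1 in every knockdown and 0.99 in scramble. Listed as mutually exclusive with the 120-base exon that follows, the couple stood at 0.99 in PRMT5 knockdown and at 1 in the other knockdowns and in scramble. The 154-base exon (152165409 to 152165562) had a MISO value in PRMT6 knockdown alone, 0.89. That 120-base exon (152052900 to 152053019) had differences of exactly 1 for PRMT3 and PRMT6 knockdown between the exons at 152018156 and 152113956 in the authors' deposited table. Between 151986881 and 152132730 it stood at 0.500 for PRMT5 and PRMT7 and 0.217 for PRMT6 knockdown, and between 152018156 and 152132730 at 0.001 for PRMT3 and 0.005 for PRMT6 knockdown. The exact 1 comes with values for 2 of 6 targets and the 0.500 with values for 3 of 6, and their read numbers are not known.

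QKI ends in alternative last exons, and the protein isoforms they encode differ in their C-terminus and in whether they stay in the nucleus. In the MISO table, 4 events cover the intron after the exon at 163984452 to 163984751 on chromosome 6: a 947-base intron up to the 3' splice site at 163985699 and a 2226-base intron up to the site at 163986978, each with a following exon that ends at 163991177 (near end) or at 163999628 (far end). For the 947-base intron with the near end, PSI was 0.87 for PRMT1, 0.90 for PRMT3, 0.88 for PRMT4, 0.67 for PRMT5, 0.78 for PRMT6 and 0.84 for PRMT7 knockdown, against 0.92 in scramble. With the far end, the same intron stood at 0.48 for PRMT1, 0.45 for PRMT3, 0.44 for PRMT4, 0.25 for PRMT5, 0.28 for PRMT6 and 0.37 for PRMT7 knockdown, against 0.34 in scramble. Both events were lowest in PRMT5 and next lowest in PRMT6 knockdown. The level differed greatly for this 1 intron, with scramble at 0.92 in the first event and at 0.34 in the second. The order of PRMT1, PRMT3 and PRMT4 knockdown differed too. So did the place of scramble: it lay above all 6 knockdowns in the first event, and between PRMT6 and PRMT7 in the second.

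The 2226-base intron contains the 947-base intron, and its lowest values also lay in PRMT5, PRMT6 and PRMT7 knockdown, though with the near end PRMT6 was lowest. With the near end its PSI was 0.71 for PRMT1, 0.76 for PRMT3, 0.67 for PRMT4, 0.57 for PRMT5, 0.51 for PRMT6 and 0.55 for PRMT7 knockdown, against 0.61 in scramble. With the far end it was 0.32, 0.33 and 0.28 in PRMT1, PRMT3 and PRMT4 knockdown and 0.20, 0.20 and 0.26 in PRMT5, PRMT6 and PRMT7 knockdown, against 0.23 in scramble. In all 4 MISO events PRMT1, PRMT3 and PRMT4 knockdown were above PRMT5, PRMT6 and PRMT7 knockdown. These events cover the same bases and are not independent of each other.

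In the authors' deposited table the 947-base intron with the near end stood below scramble for every target, past 0.1 for all but PRMT7: -0.103 for PRMT1, -0.105 for PRMT3, -0.211 for PRMT4, -0.216 for PRMT5, -0.109 for PRMT6 and -0.099 for PRMT7 knockdown. MISO gave -0.05, -0.02, -0.04, -0.25, -0.14 and -0.08 in the same order for that event, so both tables agree in side throughout but differ by 0.171 for PRMT4. The 2226-base intron had rMATS values between -0.061 in PRMT6 and 0.056 in PRMT7 knockdown, with PRMT4 at -0.055. In PRMT1 knockdown, where MISO put this intron at 0.10, rMATS gave -0.033. The order seen by MISO, with PRMT1, PRMT3 and PRMT4 above PRMT5, PRMT6 and PRMT7, held for neither intron in rMATS. Lower retention in PRMT5 and PRMT6 knockdown passed 0.1 in both tables for the shorter intron with the near end, whereas higher retention in PRMT1, PRMT3 and PRMT4 knockdown rests on MISO and, for the shorter intron, on the event with the far end. Among the rMATS events of QKI, none had the far end.

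**Figure D3:**
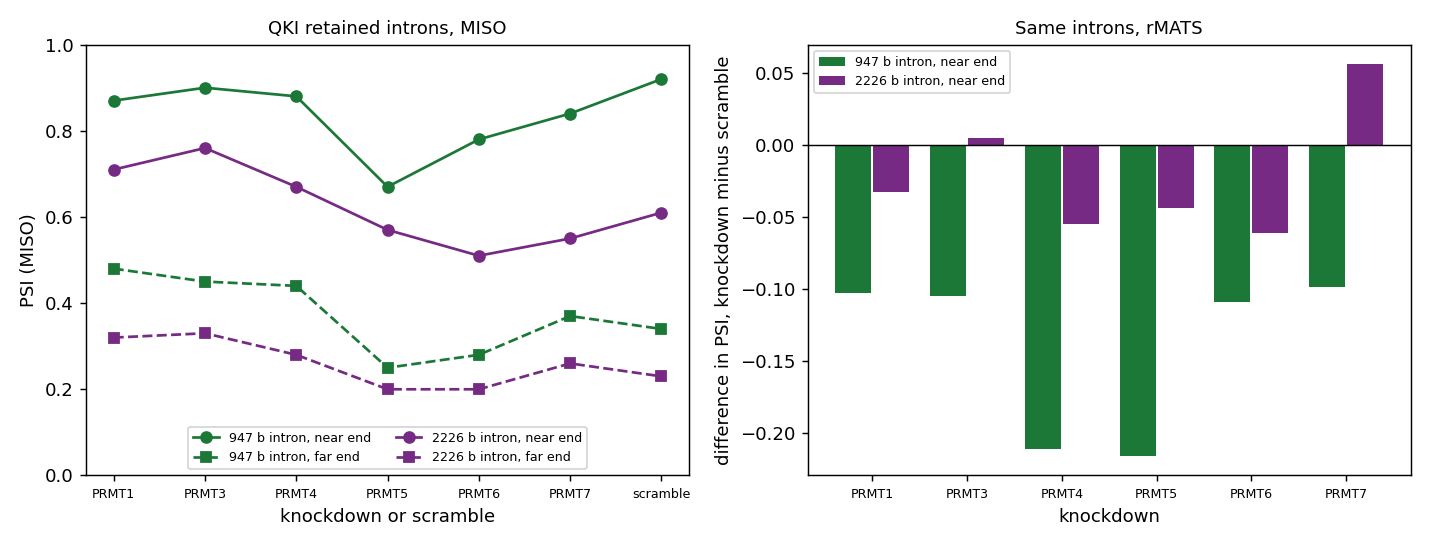
QKI intron retention. Left, PSI by MISO of 4 overlapping events in the knockdowns and scramble; right, rMATS difference in PSI, knockdown minus scramble, of the events with the near end. In each MISO profile PRMT1, PRMT3 and PRMT4 lie above PRMT5, PRMT6 and PRMT7, an order that the rMATS bars do not keep. Scramble tops only the 947-base intron with the near end, and lines only join values of an event.

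The QKI transcript also chooses among 3' splice sites here. The site at 163986978 against 163987753 had a PSI of 0.45 in PRMT7 knockdown, with 0.19 to 0.27 in all others and 0.24 in scramble. The authors' deposited table gave 0.008 for that event in PRMT7 knockdown, so the MISO value has no counterpart there. The site at 163985699 against 163986978 had a PSI of 0.16 to 0.26 in the knockdowns and 0.18 in scramble. A 24-base choice at the start of the exon at 163984452 stood at 0.92 to 0.97 in the knockdowns against 0.98 in scramble, and at -0.032 to -0.005 in the authors' deposited table.

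Internal QKI exons were nearly always included. The 117-base exon (163899812 to 163899928) had a PSI of 0.97 to 0.99 in the 6 knockdowns against 0.90 in scramble, a difference of 0.07 to 0.09 that stays just under the threshold in each. In the authors' deposited table the same exon differed by 0.006 to 0.016. For the 143-base exon before it, PSI was 0.98 to 0.99 in the knockdowns and 0.99 in scramble. As a mutually exclusive couple these exons had a PSI of 0.72 in PRMT7 knockdown and 0.79 to 0.82 in PRMT3, PRMT4, PRMT5 and PRMT6 knockdown, with no scramble value.

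RBFOX2 had 2 MISO events, neither with all 7 values. At a pair of 3' splice sites 3 bases apart (chromosome 22, 36177791 to 36177793), PSI was 0.44 for PRMT1, 0.44 for PRMT3, 0.44 for PRMT5, 0.40 for PRMT6 and 0.34 for PRMT7 knockdown, against 0.42 in scramble. This choice adds or drops 3 bases and stayed within 0.08 of scramble, and the authors' deposited table gave -0.025 to 0.042. A rarely used exon of 120 bases (36232367 to 36232486) had a PSI of 0.04 in PRMT1 and 0.03 in PRMT7 knockdown. Its rMATS differences were 0.017 to 0.052, all above scramble.

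The C-terminal exons of 43 and 40 bases are known as alternatives in RBFOX genes, the first used in muscle and the other in non-muscle cells. Between the same neighbours (36142608 and 36155935), the 43-base exon (36148660 to 36148702) stood in the authors' deposited table at 0.038 for PRMT1, 0.113 for PRMT3, 0.081 for PRMT5, 0.029 for PRMT6 and 0.012 for PRMT7 knockdown, with no value for PRMT4. The 40-base exon (36152152 to 36152191) stood at -0.053 for PRMT1, -0.014 for PRMT3, -0.020 for PRMT4, -0.005 for PRMT5, -0.038 for PRMT6 and -0.059 for PRMT7 knockdown. The signs were opposite in every knockdown with both values, but the sizes did not mirror each other: PRMT3 and PRMT5, the largest for the 43-base exon, were the smallest for the 40-base exon. Only the PRMT3 value reached 0.1.

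The 93-base exon of RBFOX2 (36164304 to 36164396), which encodes part of its RNA recognition motif and whose skipping is a known form of autoregulation, differed by -0.008 to 0.002. The 54-base exon next to it (36174072 to 36174125) differed by -0.006 to 0.004. One more value passed 0.1, at -0.101 in PRMT5 knockdown for the 3-base choice spliced from the exon at 36334895, which had no value for any other target.

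CELF1 showed the widest range among the 16 MISO events with all values. After the exon at 47493743 to 47493909 on chromosome 11, minus strand, the transcript joins 1 of 3 splice sites: near (47493654), middle (47492441) or far (47490443). The near site against the far one had a PSI of 0.67 for PRMT1, 0.79 for PRMT3, 0.59 for PRMT4, 0.87 for PRMT5, 0.53 for PRMT6 and 0.69 for PRMT7 knockdown, against 0.67 in scramble. PRMT5 was 0.20 and PRMT3 0.12 above scramble, PRMT6 was 0.14 below it, and PRMT1 was level with it. The middle against the far site gave 0.58, 0.67, 0.51, 0.76, 0.46 and 0.62 in the same order of knockdowns, against 0.58 in scramble, the same ranking. The near against the middle site stayed at 0.97 to 0.99, apart from 0.89 in PRMT6 knockdown, against 0.99 in scramble.

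The authors' deposited table describes the near site through another kind of event, a 105-base exon (47493550 to 47493654) that begins at this site and is either included or skipped before the far site. It stood at -0.097 for PRMT1, 0.026 for PRMT3, -0.071 for PRMT4, 0.123 for PRMT5, -0.121 for PRMT6 and 0.079 for PRMT7 knockdown. The sides are those of the MISO near-against-far event in PRMT3, PRMT4, PRMT5, PRMT6 and PRMT7 knockdown, with PRMT5 and PRMT6 past 0.1 on opposite sides in both tables, while PRMT1 was level in MISO. Skipped instead before a site at 47492107, the exon stood at -0.276 for PRMT6, -0.144 for PRMT1 and 0.050 for PRMT5 knockdown, with -0.048 for PRMT7 knockdown on the other side from the first event. Lower use of the near site in PRMT6 knockdown thus reached 0.1 in the 2 MISO events that involve it and in both rMATS events.

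**Figure D4:**
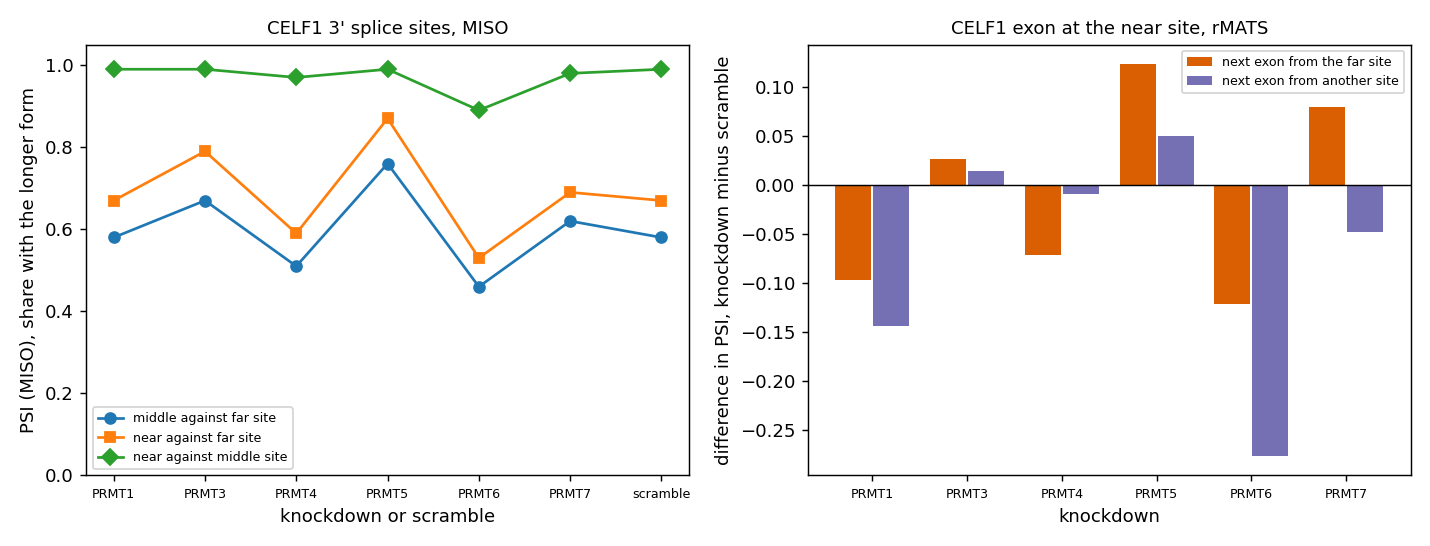
CELF1 3' splice sites. Left, PSI by MISO (share in the longer form) of the 3 pairs of sites in the knockdowns and scramble; right, rMATS difference, knockdown minus scramble, of the 105-base exon that starts at the near site. PRMT5 is highest and PRMT6 lowest in the 2 MISO profiles against the far site, and the bars of the event before the far site are highest for PRMT5 and lowest for PRMT6.

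Upstream of these, 3 small CELF1 exons of 152, 72 and 40 bases lie between the exon that ends at 47510576 and several exons farther upstream, and they gave the largest rMATS differences of the gene. The 72-base exon (47522413 to 47522484), between 47510576 and the 40-base exon, stood below scramble in all knockdowns, past 0.1 in 5: -0.141 for PRMT1, -0.484 for PRMT3, -0.242 for PRMT4, -0.293 for PRMT5, -0.459 for PRMT6 and -0.065 for PRMT7 knockdown. The 40-base exon (47528410 to 47528449), between the 72-base exon and the exon at 47574544, stood above it in all, past 0.1 in each: 0.374 for PRMT1, 0.153 for PRMT3, 0.588 for PRMT4, 0.278 for PRMT5, 0.312 for PRMT6 and 0.406 for PRMT7 knockdown. The 152-base exon (47521005 to 47521156), between the 72-base exon and 47510576, stood at -0.218 in PRMT4 to -0.070 in PRMT6 knockdown.

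Next to other neighbours these exons took other values. Between the exon at 47574544 and the exon ending at 47510576, the 72-base exon stayed at -0.109 to 0.031, but with the 152-base exon in place of the second of these it stood at -0.303 to -0.090 in 5 targets. Between 47586826 and 47510576, it stood at 0.111 in PRMT4, 0.125 in PRMT5 and 0.214 in PRMT6 knockdown. Between 47510576 and 47586826, the 40-base exon stood at 0.262 for PRMT1, 0.051 for PRMT5 and 0.171 for PRMT6 knockdown but at -0.441 for PRMT3, -0.299 for PRMT4 and -0.441 for PRMT7 knockdown. Its value between 47510576 and 47574544 was 0.024 to 0.165, and between the 72-base exon and 47586826 it was -0.279 to -0.153 in 3 targets. The 152-base exon between 47510576 and 47574544 stood at -0.245 to -0.009 in 5 targets, and between 47510576 and 47586826 at -0.114 in PRMT4 knockdown, its only value. A 119-base exon (47585903 to 47586021) reached 0.109 in PRMT5 knockdown, with 0.050 in PRMT3 and 0.061 in PRMT4 knockdown. Sizes and sides for these exons therefore hold for a given set of neighbours. The MISO table held none of these upstream events.

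The exons given here from the body of CELF1 stayed near scramble, while a choice of 3' splice site came closer to the threshold of 0.1. The 144-base exon (47494640 to 47494783) differed by 0.003 to 0.005 and the 80-base exon (47505005 to 47505084) by -0.007 to 0.010 between the same neighbours. By MISO the 80-base exon stood at 0.95 in PRMT1 and 0.96 in PRMT6 knockdown, against 0.96 in scramble. At a 12-base choice of 3' splice site (47500493 to 47500504) the differences were -0.025 to 0.086.

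**Figure D5:**
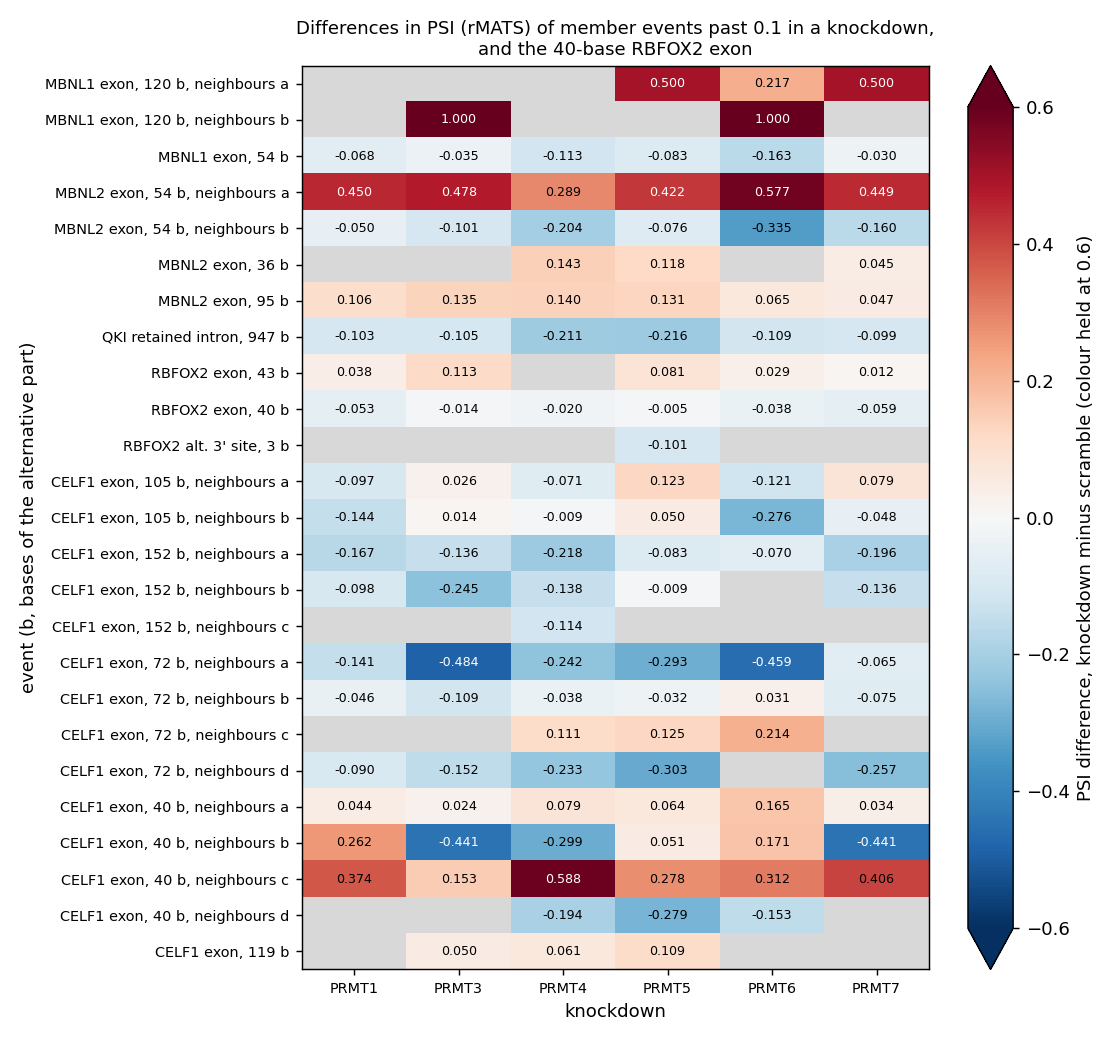
Differences in PSI by rMATS, knockdown minus scramble (colour, held at 0.6 either way, and printed value), of the 24 member events that reached 0.1 in a knockdown and of the 40-base RBFOX2 exon; grey cells have no value, and letters tell apart the neighbours of 1 exon. Exons of MBNL2 and CELF1 carry opposite signs with different neighbours.

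For 13 member events between the same splice junctions, both tables gave 68 differences from scramble. The tables were within 0.1 PSI of each other in 61 of these. Only 8 of the 68 reached 0.1 by MISO, so most were small differences, and the 61 do not measure agreement. Opposite signs can fall within 0.1, as for RBFOX2 in PRMT7 knockdown (-0.08 by MISO, 0.01 in rMATS). Among the 8, the QKI site in PRMT7 knockdown had a gap of 0.202, the largest of all. The longer QKI intron with the near end had gaps of 0.145 in PRMT3 and 0.133 in PRMT1 knockdown. The rest of the 8 had gaps below 0.1. Of the 8 that reached 0.1 by MISO, 7 had the same side in the authors' deposited table and 3 reached 0.1 there too: the MBNL1 54-base exon in PRMT4 knockdown and the 947-base QKI intron in PRMT5 and PRMT6 knockdown. The sign of the rMATS table was itself set from MISO differences over all events, so the shared side is not independent support.

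Events of other genes with the most similar profile over the 7 columns were found by the root mean square difference of PSI after centring, among 2951 events with a range of at least 0.1. For the 54-base exon of MBNL1 these were a cassette exon of IFNLR1 (0.0118), an alternative 3' splice site of NKX2-5 (0.0229) and an exclusive exon couple of BOD1 (0.0256). The near-against-far site of CELF1 was closest to an exon of FDPS (0.0260), an alternative 5' splice site of CDK2 (0.0261) and an alternative 3' splice site of UBE2D3 (0.0301). For the 947-base QKI intron with the near end, the closest events lay in SLC35B2 (0.0312), CXADR (0.0370) and BRPF1 (0.0374). Among so many events and only 7 columns, likeness of this kind says nothing of a shared regulator.

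Few other tissue-specific splicing regulators were measured in the MISO table. Of 31 such genes (the remaining MBNL, RBFOX and CELF members, the NOVA, ESRP, ELAVL, KHDRBS and MSI genes, PTBP2 and others), 5 had an event with all 7 MISO values, 6 events in all. A single event of them reached 0.1, in every knockdown but PRMT3: a 3-base choice of 3' splice site in PTBP2, a neural relative of PTBP1. Its PSI was 0.51 for PRMT1, 0.40 for PRMT3, 0.53 for PRMT4, 0.51 for PRMT5, 0.53 for PRMT6 and 0.66 for PRMT7 knockdown, against 0.39 in scramble. With 6 events, 1 event is already 16.7%, so this share cannot be read against the backgrounds of 6.34% to 8.27% in those 5 knockdowns. In PRMT3 knockdown the share was 0% (background 10.5%). The authors' deposited table gave -0.034 to 0.049 for that choice in PTBP2.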

How the data were processed

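Per the labels' protocols, stranded poly(A) libraries were made from RNA of hairpin-carrying HEK293T cells. The submitters' processing notes name cutadapt 1.18, HISAT and build GRCh37. Settings of MISO and rMATS, the annotation and the way from 2 hairpins to 1 column are not given in these sources. The deposited MISO values are PSI as a fraction. The deposited rMATS values are a signed score, the authors' difference in PSI, whose direction is not stated. Their correlation with knockdown minus scramble by MISO, over 7200 to 7543 events per target with the same junctions, was -0.590 to -0.346 (-0.698 to -0.429 for alternative 3' splice sites), so their sign was turned. Such events are not independent replicates.

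Members were found by whole symbol. The members, the 2 gene lists and the threshold of 0.1 were chosen with earlier results of these data known. Every member event was described where it reached 0.1 in a table; genes of the lists were named where an event reached 0.1 on the same side in 4 or more knockdowns, at most 4 per list. There was no test, since the tables hold no value per library. The size rule and the reading of coordinates were tested on simulated data. Alternatives were the threshold, the reference, a filter on mean PSI, missing values, the logit scale and overlap. In the MISO table, 1 line was empty and was not used. Exon sequences were read from GENCODE release 29 transcripts without coordinates. Python 3.11.15, numpy 2.4.6, pandas 2.3.3 and matplotlib 3.10.9 were used.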

Additional observations from a re-analysis of the deposited data

Results flagged for a closer look

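Events that stood at least 0.1 PSI above scramble in 1 knockdown and at least 0.1 below it in another were singled out. The difference between those knockdowns was not tested, since each is a single column. The near against the far CELF1 site stood at 0.20 in PRMT5 and -0.14 in PRMT6 knockdown by MISO, and the middle against the far site at 0.18 and -0.12. The 105-base CELF1 exon that starts at the near site stood at 0.123 in PRMT5 and -0.121 in PRMT6 knockdown in the authors' deposited table. Both tables thus put PRMT5 and PRMT6 on opposite sides here, and the MISO events share their reads.

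The 2226-base QKI intron with the near end stood at 0.15 in PRMT3 and -0.10 in PRMT6 knockdown by MISO. The authors' deposited table gave 0.005 and -0.061 for it. The 40-base CELF1 exon between 47510576 and 47586826 stood at 0.262 in PRMT1 and -0.441 in PRMT3 and PRMT7 knockdown in the authors' deposited table, and MISO did not list it. The value of -0.441 is the same in both of these knockdowns, and the read numbers behind it are not known.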

How the results depend on the processing

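No paired analysis was possible because the tables hold 1 column per target, and for the same reason no replicate could be left out. Counts of differing member events by MISO (2, 5, 2, 3, 5 and 1 of 16 in PRMT1, PRMT3, PRMT4, PRMT5, PRMT6 and PRMT7 knockdown) moved by over 1.5 times under 4 alternatives. A threshold of 0.2 PSI left 0 in PRMT1, PRMT3, PRMT4 and PRMT6 knockdown. Against the mean of the other 5 knockdowns, 1 differed in PRMT1 and 2 in PRMT3 knockdown. On the logit scale, which widens differences near 0 and 1, the counts were 8 for PRMT1, 10 for PRMT3, 6 for PRMT4, 7 for PRMT5, 10 for PRMT6 and 6 for PRMT7 knockdown. With overlapping events counted once, 1 remained in PRMT1, 3 in PRMT3 and 2 in PRMT6 knockdown. The filter on mean PSI and the use of events with missing values elsewhere moved no count that far. These alternatives were counted for member events only. Without the share of all events under the same setting, the counts cannot be read as high or low. Read in rMATS instead of MISO, 1 difference past 0.1 changed side: the 2226-base QKI intron with the near end in PRMT1 knockdown (-0.033, against 0.10 by MISO). The cause was not tested. Depth is unknown, so counting error cannot be set beside any value.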

Other observations

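A list of 36 genes was drawn up in which the literature describes exons regulated by MBNL, RBFOX, QKI or CELF proteins. Of these genes, 18 had 46 events with all 7 MISO values. Every event of a listed gene was taken, and none was matched to a described exon. Of these events, 6 differed from scramble in PRMT1 knockdown (13.0%), 9 for PRMT3 (19.6%), 10 for PRMT4 (21.7%), 7 for PRMT5 (15.2%), 6 for PRMT6 (13.0%) and 5 for PRMT7 knockdown (10.9%), beside the backgrounds given above for all events. The median size of a difference was 0.01 to 0.015 PSI in the list. An exon of KIF13A, a kinesin (chromosome 6, 17771345 to 17771449), had a PSI of 0.23 in PRMT3 to 0.40 in PRMT7 knockdown, against 0.57 in scramble, with differences of -0.283 to -0.102 in the authors' deposited rMATS table. A 147-base exon of NUMB, a Notch regulator (chromosome 14, 73749067 to 73749213), stood at 0.51 in PRMT7 to 0.95 in PRMT4 knockdown, against 0.46 in scramble. It differed by only -0.033 to 0.022 in the authors' deposited table. In EPB41, which encodes a protein of the membrane skeleton, a 213-base exon stood at 0.75 in PRMT1 to 0.87 in PRMT3 knockdown, against 0.96 in scramble, but differed by -0.021 to 0.003 in the authors' deposited table. A 27-base exon of MARK3, a microtubule-affinity regulating kinase, went both ways, at 0.02 in PRMT3 and 0.36 in PRMT4 knockdown, against 0.16 in scramble, and differed by -0.059 and 0.111 in the authors' deposited table. Whether the regulators themselves changed in amount was not analysed here, and a tie between their own splicing and these exons was not tested.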
